A study of Mus musculus with 16 samples.

Results

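The colon's response to an injurious agent was compared between mice that differed in how they were born. The agent was dextran sulfate sodium (DSS), a sulfated polysaccharide given in drinking water that damages the colon lining, and the quantity examined was the interaction: the DSS response of mice born by cesarean section (CS) minus the DSS response of mice born by vaginal delivery (VD). All 16 libraries of the series entered, in 4 groups of 4, made from colon RNA of wild-type adult ICR mice, an outbred stock. CON_VD and CON_CS mice drank normal water, and DSS_VD and DSS_CS mice drank water with 3% DSS for 8 days. Of 39328 genes in the table, 15233 had an FPKM of at least 1 in at least 4 libraries and were tested. FPKM is a fragment count scaled by gene length and library depth. Of these, 2015 genes, 13.2%, had a DSS response that differed between birth modes in limma at an adjusted p under 0.05, and these are the genes described here. The labels do not say whether the libraries of a group came from separate mice or litters, so each p-value reflects only how these libraries vary, which may be technical.

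The colon is lined by a single layer of epithelial cells. Absorptive colonocytes take up salt, water and nutrients, goblet cells secrete mucus, and both release proteins that bind or kill bacteria. DSS strips this layer, after which bacteria reach the tissue beneath it, neutrophils and monocytes enter, matrix is remodelled and the epithelium regrows from the crypts. Interleukin-22, a product of group 3 innate lymphoid cells (ILC3) and some T cells, is known to drive antimicrobial and repair genes in the epithelium, and the series title names these cells.

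A response is given as the difference in log2(FPKM + 1) between DSS and water, and an interaction above 0 means that the CS response was the higher of both. A higher response can be a larger rise, a smaller fall, or a rise against a fall. A value after ± is the standard error (SE) where it follows an interaction and the standard deviation over 4 libraries (SD, n = 4) where it follows a mean FPKM. An adjusted p is from limma with Benjamini-Hochberg adjustment over the 15233 genes. The 4 groups gave a DSS response for each birth mode and a birth mode difference for each treatment, and these share libraries, so they are set side by side without a test of their likeness.

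The libraries were not alike in tissue content. Pbsn, a secretory gene of the prostate, picked here after the values were known, reached 185 FPKM in CON_CS 1, 128 in DSS_CS 3 and 1355 in DSS_CS 4, and at most 0.526 in the other 13. Tgm4, another prostate gene, was at 87.5, 23.4 and 274 in the same libraries and at most 0.564 elsewhere. Msmb and Defb50, further genes of the male glands, were also highest in these 3 libraries, whereas the seminal vesicle genes Svs2, Svs3a, Svs4, Svs5 and Svs6 were at most 2.10 FPKM in every library. Of the 11 such genes in the table only Spink1, which the gut makes too, reached the level for testing, and it was not highest in these libraries. These are called the 3 accessory gland libraries below, and all of them are from CS mice. Without them 637 genes passed the threshold, 454 with a higher and 183 with a lower response in CS mice, and 532 of these were among the 2015. That fit kept only DSS_CS 1 and DSS_CS 2 of the DSS_CS group. Leaving out DSS_CS 2 alone, which is not among the 3, gave 1056 genes. A call lost without the 3 libraries thus cannot be told apart from a call lost through fewer libraries. The part of the 3 libraries in the results was not tested.

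The summed level of 12 pan-epithelial markers, with none of the 12 at 0 in every library, was 5895 to 7057 in CON_VD, 6483 to 7089.6 in CON_CS, 2909 to 6310.1 in DSS_VD and 947 to 2933 in DSS_CS. The DSS_CS sums were thus the lowest of the 4 groups, and they overlapped the DSS_VD sums at 1 library, DSS_CS 1. Summed neutrophil markers were 74.0 to 180.3 in CON_VD, 89.9 to 134 in CON_CS, 570.3 to 1066 in DSS_VD and 847 to 1506 in DSS_CS. Of that, Ly6g gave 73.2 to 178 in CON_VD, 89.0 to 133 in CON_CS, 231 to 598 in DSS_VD and 58.1 to 153.5 in DSS_CS. On water the sums were thus nearly all Ly6g, a gene with close paralogs whose reads could be shared. In bulk tissue fewer cells of a type and less RNA per cell cannot be told apart, and the part of these sums in the gene results below was not tested.

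Of the 2015 genes, 1017 (6.68% of those tested) had a higher response in CS mice and 998 (6.55%) a lower one. The median interaction was 0.79 among the higher and -1.08 among the lower genes, against 0.04 over all tested genes. The lower genes had a median response of -0.01 in VD and -1.05 in CS mice, and the higher genes 0.42 in VD and 1.22 in CS mice. By the estimated responses, a rise in both birth modes that was larger in CS mice was the pattern of 761 of the 2015 genes (37.8%), against 32.2% of all tested genes. A fall in both that was larger in CS mice was that of 508 (25.2%), against 21.6%. Estimates pointed up in VD and down in CS mice for 413 genes (20.5%), against 11.4%, and down in VD and up in CS mice for 203 (10.1%), against 9.56%. A rise that was smaller in CS mice (77 genes, 3.82%) and a fall that was smaller in CS mice (53 genes, 2.63%) compared with 12.8% and 12.4% of all tested genes. Apart from genes rising in VD and falling in CS mice and those with smaller responses in CS mice, the shares were thus near those of all tested genes.

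The DSS response itself passed the threshold for 46.7% of tested genes in VD mice and 59.7% in CS mice. Among the 2015 genes it passed in 1128 in VD and in 1792 in CS mice, and in both for 912. Both responses passed and pointed in opposite directions for 86 genes, 54 up in VD and down in CS mice and 32 the reverse. The birth mode difference under DSS passed for 1654 of the 2015 genes, against 25.4% of all tested genes, and the difference on water for 32, against 0.282% of all tested genes. Under DSS the ranges of the VD and CS libraries did not overlap for 1432 of the 2015 genes (71.1%), against 21.8% of all tested genes, and on water for 439 (21.8%), against 10% of all tested genes. The interaction that picked the 2015 genes is made of these responses and differences. Their higher shares among the 2015 genes thus follow in part from the selection and are given as description only.

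The number of genes depended on single libraries and settings. It ranged from 1056 without DSS_CS 2 to 2515 without DSS_CS 1, and was 1096 without CON_VD 3, 1181 without DSS_CS 3, 1238 without CON_CS 3, 1242 without DSS_VD 2 and 1311 without CON_CS 4. The share with a higher response in CS mice was 50.5%, but 40.3% after scaling to TPM (a scale on which every library has the same sum), 31.1% among the 821 genes with an interaction of at least 1 in size and 71.3% without the 3 accessory gland libraries. The TPM values are larger, and the cut of 1 and the added 1 were kept, so 18980 genes were tested. That share therefore does not show the effect of equal sums alone. With median-of-ratios scaling the share was 53.7%.

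**Figure D1:**
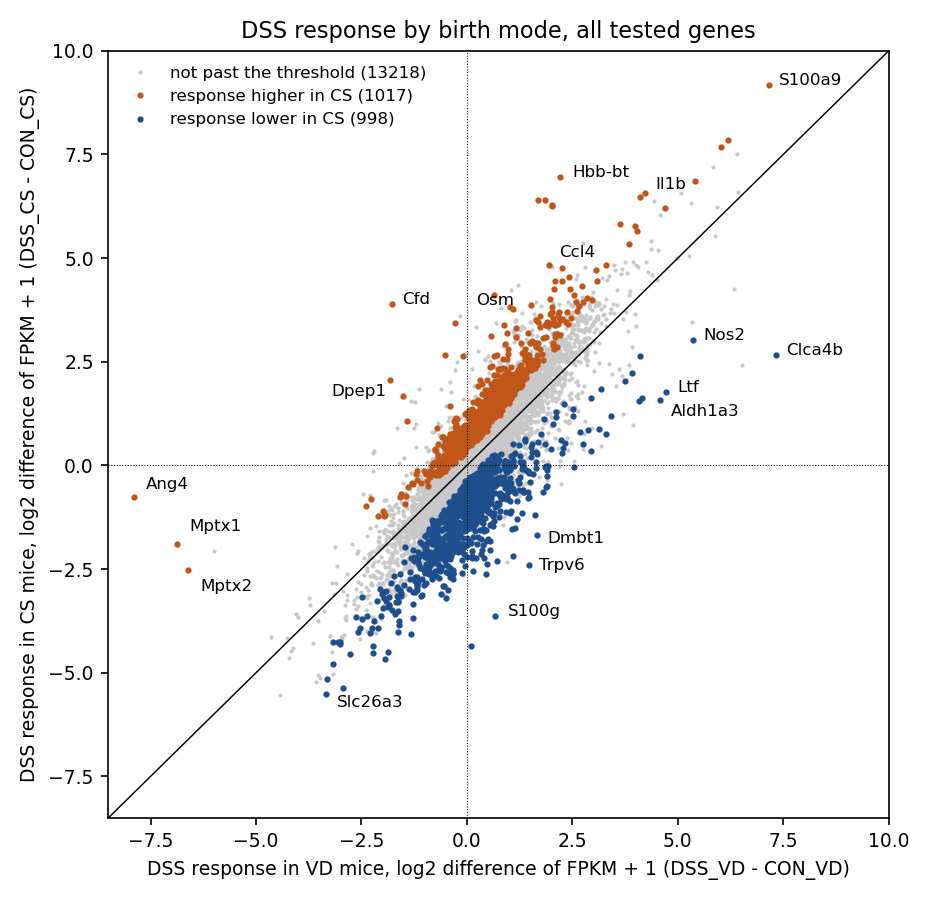
DSS response in VD mice (horizontal axis) against DSS response in CS mice (vertical axis) for the 15233 tested genes, both as differences in log2(FPKM + 1), with each gene as a point and equal responses on the diagonal line. Orange points are the 1017 genes with a higher response in CS mice and blue points the 998 with a lower one, and Ang4, Mptx1 and Mptx2 sit at the far left with the largest falls in VD mice.

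Ang4, a secreted ribonuclease with antibacterial activity made by goblet and Paneth cells, had the largest interaction of the 2015 genes (ENSMUSG00000060615, chromosome 14, 51763878 to 51773590, GRCm38). Ang4 was at 71.1, 1276, 479 and 194 FPKM in CON_VD, 2.39, 0.691, 0.158 and 0.914 in CON_CS, 0.323, 0.358, 0.453 and 0 in DSS_VD and 0.117, 0.0881, 0.135 and 0.0881 in DSS_CS. The CON_VD libraries were high and varied widely among themselves, and the other 12 were low, so the response was -7.91 in VD and -0.77 in CS mice and the interaction 7.13 ± 0.86 (adjusted p = 0.00221). The ranges of both birth modes overlapped under DSS and were apart on water.

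The mucosal pentraxins Mptx1 and Mptx2, secreted relatives of C-reactive protein, followed the same order. Mptx1 was at 65.5, 806, 453 and 278 FPKM in CON_VD, 7.09, 5.37, 5.85 and 7.66 in CON_CS, 1.495, 1.36, 1.74 and 1.203 in DSS_VD and 0.213, 0.0781, 3.57 and 1.68 in DSS_CS. The 4 CON_VD libraries lay above all others, with an interaction of 4.98 ± 0.83 (adjusted p = 0.00705) for Mptx1 (ENSMUSG00000026531, chromosome 1, 174330518 to 174332873) and 4.09 ± 0.83 (adjusted p = 0.0118) for Mptx2. Mptx2 averaged 465 ± 397 FPKM in CON_VD, 8.65 ± 2.57 in CON_CS, 2.33 ± 1.06 in DSS_VD and 0.729 ± 0.683 in DSS_CS. The paralogs are alike in sequence, so how reads were split between them is uncertain. Retnlb, a goblet cell bactericidal protein on the list of genes taken whatever their values, averaged 585 ± 194, 77.7 ± 90.2, 279 ± 212 and 37.6 ± 24.4 FPKM in the same order and did not pass (interaction 2.16 ± 1.78, adjusted p = 0.446). The threshold was missed by Mptx2 at a pseudocount of 0.1.

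Dpep1, a membrane dipeptidase that cleaves leukotriene D4 and glutathione products, moved in opposite directions (ENSMUSG00000019278, chromosome 8, 123186242 to 123201812). Dpep1 was at 33.3, 9.99, 27.1 and 36.7 FPKM in CON_VD, 4.43, 4.75, 2.62 and 4.004 in CON_CS, 7.13, 4.06, 10.0 and 11.8 in DSS_VD and 7.84, 20.3, 17.2 and 16.2 in DSS_CS. On water the CS libraries were all below the VD libraries, and under DSS the ranges overlapped. The response was -1.53 in VD and 1.68 in CS mice, both past the threshold, with an interaction of 3.20 ± 0.54 (adjusted p = 0.00731). Hsd3b3, a steroid dehydrogenase, and Sst, the hormone somatostatin, also had water groups that did not overlap. On this scale Hsd3b3 fell in both birth modes but less in CS mice (-2.39 in VD and -0.98 in CS mice; interaction 1.41 ± 0.23, adjusted p = 0.00606). Hsd3b3 averaged 5.35 ± 1.01 FPKM in CON_VD, 1.08 ± 0.572 in CON_CS, 0.203 ± 0.0739 in DSS_VD and 0.0251 ± 0.0207 in DSS_CS. CON_CS lay near the added 1, where the scale understates changes, so a smaller fall in proportion is not shown. Sst was at 3.89, 3.76, 8.35 and 7.36 FPKM in CON_VD, 1.43, 2.52, 2.08 and 2.19 in CON_CS, 10.8, 8.14, 9.08 and 7.94 in DSS_VD and 13.1, 18.1, 16.1 and 13.3 in DSS_CS. The 4 DSS_CS libraries were the highest and the 4 CON_CS libraries the lowest, and the interaction was 1.80 ± 0.29 (adjusted p = 0.00606). Calls were lost by Hsd3b3 at a pseudocount of 0.1.

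Of 25 antimicrobial and interleukin-22-responsive epithelial genes, 23 were tested and 15 passed (65.2%, against 13.2% of all tested genes). The response in CS mice was higher for 7 and lower for 8, and the median interaction of the list was -0.29. The higher genes were Ang4, Mptx1, Mptx2, the neutrophil proteins S100a8 and S100a9, the acute phase protein Saa3 and Lbp. The lower genes were Dmbt1, Lypd8, Pigr, Nos2, Saa1, Duox2, Duoxa2 and Fut2. The count was 7 without the 3 accessory gland libraries and 9 without CON_VD 3 or CON_CS 4.

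Dmbt1, a secreted scavenger protein that binds bacteria at mucosal surfaces, moved in opposite directions (ENSMUSG00000047517, chromosome 7, 131032053 to 131121630). Dmbt1 was at 149.9, 231, 213 and 201 FPKM in CON_VD, 334, 293, 451 and 326 in CON_CS, 495, 877, 479.9 and 698 in DSS_VD and 193, 61.0, 87.3 and 128 in DSS_CS. The 4 DSS_VD libraries were the highest, and 3 of the DSS_CS libraries the lowest. The level rose in VD mice and fell in CS mice (1.65 in VD and -1.68 in CS mice), with an interaction of -3.33 ± 0.42 (adjusted p = 0.00221). Lypd8, a colonocyte protein that keeps flagellated bacteria from the epithelium, had a lower response in CS mice. Lypd8 was at 6485, 5155, 4547 and 5219 FPKM in CON_VD, 6479, 6706, 6228 and 6489 in CON_CS, 6062, 7685, 3644 and 3285 in DSS_VD and 2032, 563, 981 and 1171 in DSS_CS. DSS_VD overlapped the water libraries, and the 4 DSS_CS libraries lay below all others, with an interaction of -2.47 ± 0.48 (adjusted p = 0.0109).

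Pigr carries immunoglobulin A across the epithelium. It fell in both birth modes, by more in CS mice (-1.64 in VD and -4.03 in CS mice; interaction -2.39 ± 0.52, adjusted p = 0.0134). Pigr averaged 899 ± 194 and 848 ± 79.0 FPKM on water and 297 ± 98.0 and 58.3 ± 31.6 under DSS in VD and CS mice. Duox2 makes hydrogen peroxide at the apical surface and Nos2 makes nitric oxide, and both rose less in CS mice. Duox2 was at 8.38, 10.98, 12.9 and 14.4 FPKM in CON_VD, 22.4, 13.6, 13.8 and 11.6 in CON_CS, 96.9, 99.7, 70.7 and 56.0 in DSS_VD and 52.5, 12.8, 30.9 and 24.3 in DSS_CS. The 4 DSS_VD libraries were above the 4 DSS_CS libraries, and the interaction was -1.87 ± 0.47 (adjusted p = 0.0220). Nos2 rose to 75.8 ± 30.2 FPKM in DSS_VD and 22.8 ± 13.6 in DSS_CS (interaction -2.33 ± 0.69, adjusted p = 0.0405). Nlrc4, the inflammasome protein that responds to bacterial flagellin, rose in VD mice and fell in CS mice. Nlrc4 was at 3.04, 3.44, 4.84 and 5.86 FPKM in CON_VD, 8.03, 7.41, 8.97 and 8.05 in CON_CS, 8.03, 12.3, 8.80 and 9.37 in DSS_VD and 6.06, 2.77, 3.45 and 4.24 in DSS_CS. Under DSS all VD libraries were above all CS libraries. The response was 1.02 in VD and -0.87 in CS mice, with an interaction of -1.89 ± 0.27 (adjusted p = 0.00398).

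Lbp, which carries bacterial lipopolysaccharide to its receptor, had a higher response in CS mice (ENSMUSG00000016024, chromosome 2, 158306493 to 158332852). Lbp was at 1.60, 1.65, 1.68 and 1.13 FPKM in CON_VD, 1.60, 1.11, 1.65 and 1.35 in CON_CS, 12.4, 9.22, 14.9 and 19.6 in DSS_VD and 40.5, 38.1, 41.1 and 43.3 in DSS_CS. The water groups overlapped and the DSS groups were apart, with a rise in both birth modes (2.54 in VD and 4.11 in CS mice) and an interaction of 1.57 ± 0.23 (adjusted p = 0.00423). S100a9, a calcium-binding protein of neutrophils, rose from 0.0486 ± 0.0698 and 0.0805 ± 0.161 FPKM on water in VD and CS mice to 174 ± 121 in DSS_VD and 628 ± 131 in DSS_CS (interaction 2.02 ± 0.46, adjusted p = 0.0157). Significance was lost by Duox2, Lypd8 and Nos2 with no filter on low values, by Duox2, Nos2 and S100a9 without the 3 accessory gland libraries, by Nos2 and S100a9 at a pseudocount of 0.1 and by Nos2 after scaling to TPM. Leaving out a single library ended the call of Nos2 without any 1 library other than CON_VD 4, DSS_VD 1, DSS_VD 4, DSS_CS 1 or DSS_CS 4.

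Il22 itself did not pass in the limma fit on all libraries as deposited. Il22 was listed at 0 in all 8 water libraries and was at 3.12, 2.67, 4.43 and 9.27 FPKM in DSS_VD and 1.58, 2.18, 1.11 and 1.86 in DSS_CS. It rose in both birth modes, and the 4 DSS_VD libraries lay above the 4 DSS_CS libraries. Its interaction was -1.02 ± 0.33 (adjusted p = 0.0538), and it passed with library weights (adjusted p = 0.0109), with median-of-ratios scaling (adjusted p = 0.0376) and without any 1 of DSS_VD 1, DSS_VD 2 or DSS_VD 4. Of 18 ILC3 and type 3 genes, 12 were tested and 0 passed in limma, 3 of them at an unadjusted p under 0.05, with a median interaction of 0.17. The count was 1 without any 1 of DSS_VD 1, DSS_VD 2, DSS_VD 3 or DSS_VD 4 and 2 without DSS_CS 1. Il17a, Il23r, Ifng and Csf2 were below the level for testing. The interleukin-22 targets Reg3b and Reg3g, antibacterial lectins, did not pass, with interactions of -1.51 ± 1.03 (adjusted p = 0.349) and -1.29 ± 0.84 (adjusted p = 0.320). Muc2, the secreted mucin of goblet cells, had an interaction of -0.70 ± 0.43 (adjusted p = 0.296).

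**Figure D2:**
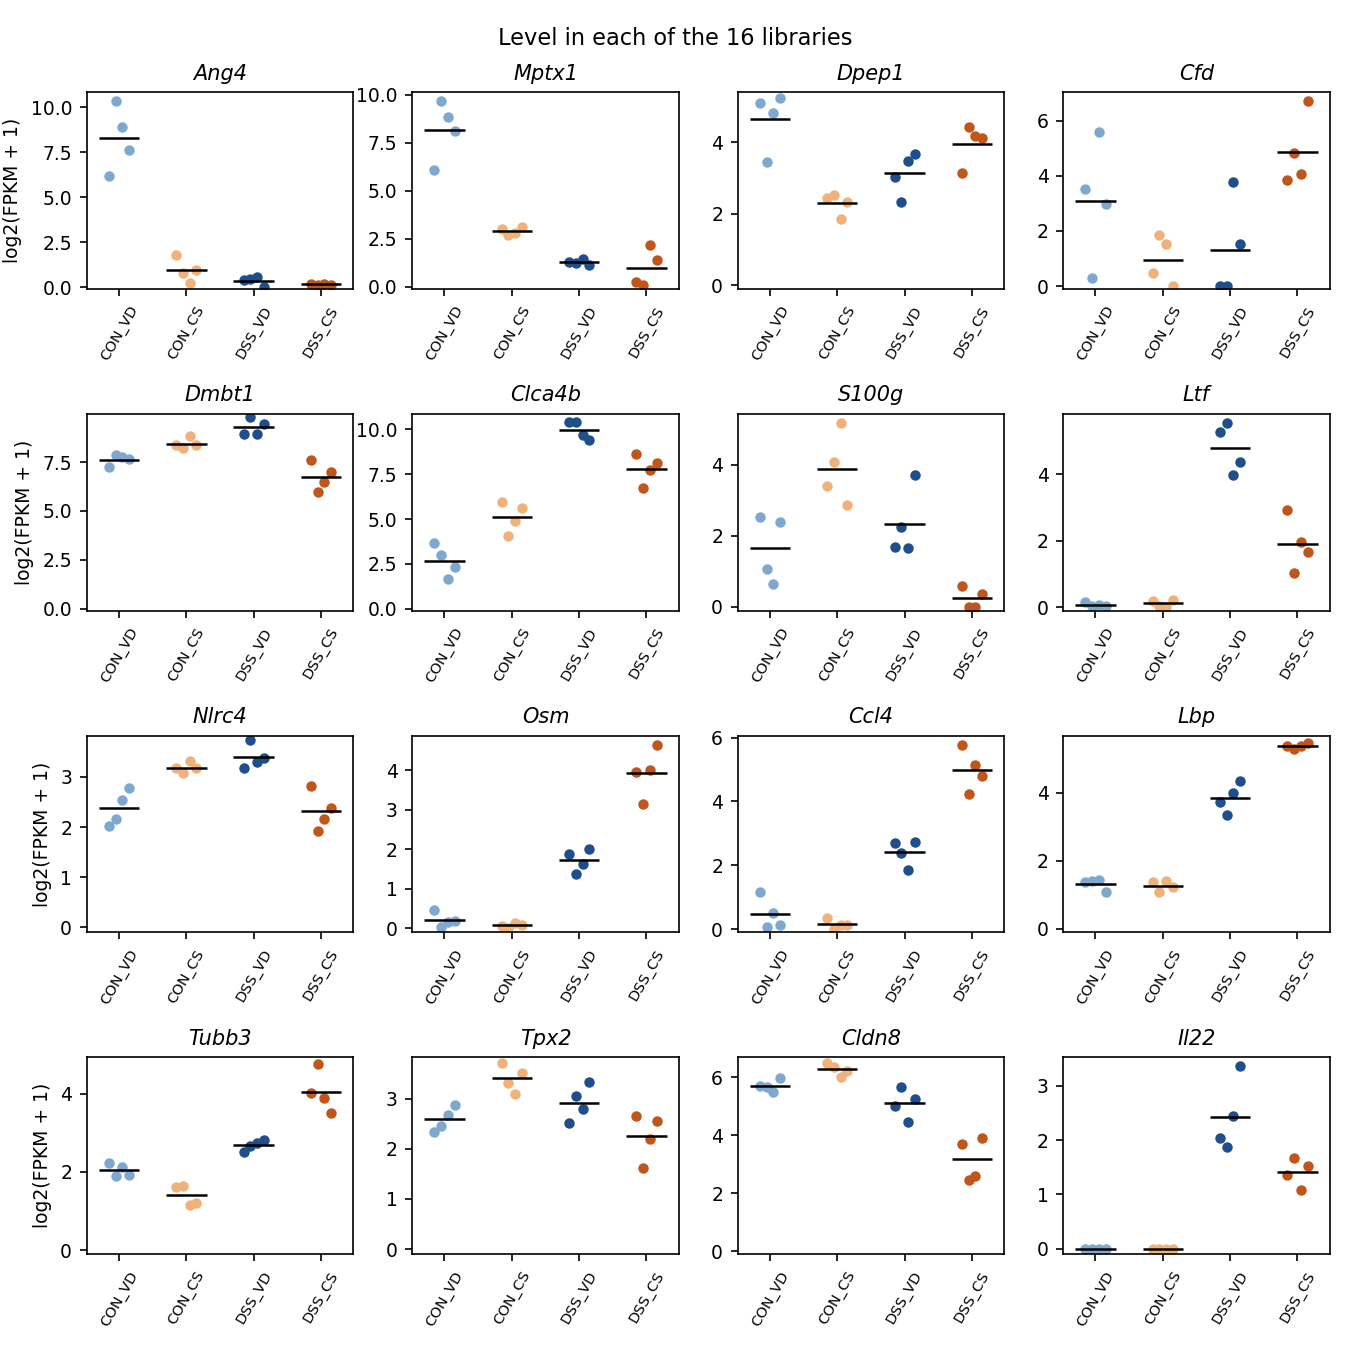
Level of 16 genes as log2(FPKM + 1) on the vertical axis, with 1 panel a gene, each of the 16 libraries as a point in its group on the horizontal axis, and the group mean as a line. Ang4 and Mptx1 are high in CON_VD alone, Dmbt1, S100g and Nlrc4 are lowest or near lowest in DSS_CS, and Osm, Ccl4, Lbp and Tubb3 are highest in DSS_CS.

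Epithelial transport genes that passed had lower responses in CS mice, where the summed epithelial markers were also lowest under DSS. Of 18 absorptive colonocyte genes 17 were tested and 5 passed (29.4%, against 13.2% of all tested genes), all lower (median interaction -1.24). They were Slc26a3, the chloride-bicarbonate exchanger of surface cells, Scnn1b, a subunit of the epithelial sodium channel, the amino acid transporter Slc6a14, the adhesion molecule Ceacam1 and the carbonic anhydrase Car4. Slc26a3 fell in both birth modes (-3.34 in VD and -5.52 in CS mice; interaction -2.18 ± 0.48, adjusted p = 0.0135), to 12.7 ± 5.25 FPKM in DSS_VD and 1.22 ± 1.05 in DSS_CS. The interactions of Scnn1b, Slc6a14, Ceacam1 and Car4 were -1.203, -1.54, -1.80 and -2.70. Of 25 ion, water and solute transport genes 8 passed (32%, against 13.2% of all tested genes), all lower (median -0.91). Among them was the peptide transporter Slc15a1 (interaction -2.55 ± 0.53, adjusted p = 0.0119). The absorptive count was 1 without the 3 accessory gland libraries, 2 without DSS_CS 3 and 3 without any 1 of CON_VD 3, DSS_VD 2 or DSS_CS 2. The transport count was 0 without the 3 accessory gland libraries, 3 without DSS_CS 2, 4 without CON_VD 3 or DSS_VD 2, 5 without CON_CS 3 or DSS_CS 3 and 13 without DSS_VD 3. An adjusted p of at least 0.05 was reached by Car4, Ceacam1, Slc15a1, Slc26a3 and Slc6a14 without the 3 accessory gland libraries, by Car4, Ceacam1, Scnn1b and Slc6a14 with no filter on low values and by Car4 and Slc26a3 on a square root scale. Removal of 1 library ended the call of Scnn1b without DSS_CS 2, of Slc6a14 without DSS_CS 3, of Ceacam1 without any 1 of CON_VD 3, CON_CS 1, DSS_VD 2 or DSS_CS 3 and of Car4 without any 1 library other than CON_VD 4, DSS_VD 3, DSS_VD 4 or DSS_CS 1.

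Calcium uptake genes had some of the largest interactions. Trpv6 is the apical calcium channel of intestinal cells, S100g is calbindin-D9k, which carries the ion through the cell, and Vdr is the vitamin D receptor, which drives both. S100g was at 4.77, 1.12, 0.580 and 4.25 FPKM in CON_VD, 9.61, 15.8, 35.2 and 6.27 in CON_CS, 2.23, 3.73, 2.18 and 12.1 in DSS_VD and 0.512, 0, 0 and 0.299 in DSS_CS. CON_CS was higher than CON_VD, and the 4 DSS_CS libraries were the lowest, with 2 of them at 0. The S100g response was 0.66 in VD and -3.64 in CS mice, with only the second past the threshold, and the interaction was -4.30 ± 0.77 (adjusted p = 0.00818). S100g is ENSMUSG00000040808, chromosome X, 162961992 to 162964599. Trpv6 was at 0.517, 0.755, 1.66 and 4.15 FPKM in CON_VD, 11.7, 13.9, 6.60 and 2.07 in CON_CS, 2.58, 9.38, 4.84 and 8.78 in DSS_VD and 2.14, 0.161, 0.249 and 0.208 in DSS_CS. Under DSS the birth modes did not overlap, and the Trpv6 level rose in VD and fell in CS mice (1.47 in VD and -2.41 in CS mice; interaction -3.88 ± 0.74, adjusted p = 0.0103). Vdr fell in both, from 37.4 ± 4.60 to 9.77 ± 2.50 FPKM in VD and from 37.3 ± 2.83 to 3.36 ± 1.06 in CS mice (interaction -1.31 ± 0.27, adjusted p = 0.0118).

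Clca4b, a member of the calcium-activated chloride channel regulator family, had the largest interaction below 0 of the 2015 genes (ENSMUSG00000074195, chromosome 3, 144910921 to 144932529). Clca4b was at 11.9, 7.01, 2.20 and 3.97 FPKM in CON_VD, 61.1, 15.4, 29.2 and 47.9 in CON_CS, 1345, 1382, 833 and 682 in DSS_VD and 387, 106, 211 and 280.3 in DSS_CS. It was higher in CS than in VD mice on water and lower under DSS, with no overlap in either, and rose in both birth modes (7.32 in VD and 2.67 in CS mice; interaction -4.64 ± 0.70, adjusted p = 0.00473). Clca4b has close paralogs, so its share of ambiguous reads is uncertain. Abcg5, a subunit of the sterol exporter, and Tmem45b, a membrane protein, fell in CS mice and had responses of 1.10 and 0.46 in VD mice that did not pass. Abcg5 was at 2.05, 6.01, 6.93 and 0.594 FPKM in CON_VD, 6.32, 19.1, 7.13 and 6.01 in CON_CS, 7.08, 11.6, 5.77 and 7.20 in DSS_VD and 3.30, 0.387, 0.701 and 0.905 in DSS_CS. The 4 DSS_CS libraries were below the 4 DSS_VD libraries (interaction -3.29 ± 0.69, adjusted p = 0.0124). Tmem45b averaged 55.2 ± 10.7 and 80.0 ± 22.2 FPKM on water and 83.1 ± 44.4 and 15.4 ± 12.0 under DSS in VD and CS mice (interaction -3.09 ± 0.70, adjusted p = 0.0158). The threshold was missed by Abcg5, Tmem45b and Trpv6 without the 3 accessory gland libraries.

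Cell junction genes that passed had lower responses too. Of 20 tight junction and adhesion genes 10 passed (50%, against 13.2% of all tested genes), all lower in CS mice (median -1.14). Cldn8, a sealing claudin of the distal colon, led them. Cldn8 was at 50.9, 49.8, 44.4 and 62.4 FPKM in CON_VD, 89.1, 81.2, 63.2 and 74.2 in CON_CS, 31.6, 50.1, 21.1 and 37.4 in DSS_VD and 12.0, 4.46, 5.003 and 14.1 in DSS_CS. Each DSS_CS library lay below the rest (response -0.61 in VD and -3.11 in CS mice; interaction -2.50 ± 0.44, adjusted p = 0.00777). Dsg2, the desmosomal cadherin, had a response of 0.06 in VD and -1.82 in CS mice (interaction -1.88 ± 0.34, adjusted p = 0.00871), and Ocln, Tjp1 and Tjp3 of the tight junction also passed. The count was 2 without the 3 accessory gland libraries, 5 without any 1 of DSS_VD 2, DSS_CS 2 or DSS_CS 3, 6 without any 1 of CON_VD 1, CON_VD 3 or CON_CS 3 and 16 without DSS_CS 1.

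Of 25 mucin and O-glycosylation genes 19 were tested and 13 passed (68.4%, against 13.2% of all tested genes), 12 lower and 1 higher (median -1.04). Galnt7 adds the first sugar of O-glycans, C1galt1 extends it to core 1 and B3galt5 adds galactose to outer chains. Galnt7 was at 16.6, 24.4, 18.3 and 29.3 FPKM in CON_VD, 33.8, 33.5, 35.8 and 33.3 in CON_CS, 11.5, 18.3, 9.83 and 11.9 in DSS_VD and 8.80, 5.03, 5.63 and 6.48 in DSS_CS. DSS_CS lay below the other groups, with an interaction of -1.52 ± 0.28 (adjusted p = 0.00888). C1galt1 rose in VD mice and fell in CS mice (0.48 in VD and -0.63 in CS mice; interaction -1.11 ± 0.22, adjusted p = 0.0118). B3galt5 averaged 93.2 ± 32.1 FPKM in DSS_VD and 21.9 ± 11.8 in DSS_CS (interaction -2.15 ± 0.46, adjusted p = 0.0128). The higher gene was the sialyltransferase St3gal4 (interaction 0.78 ± 0.21, adjusted p = 0.0293). B3gnt5, which starts a family of glycolipids, is outside this list and was among the genes with the smallest adjusted p (interaction -2.30 ± 0.29, adjusted p = 0.00221). Of 16 goblet cell genes 4 passed (25%, against 13.2% of all tested genes), and the list's median was -1.05. Ang4 was higher, and the membrane mucin Muc13, the lineage factor Atoh1 and the transferase Galnt12 were lower. Muc13 was at 364, 570.3, 404 and 643 FPKM in CON_VD, 759.6, 601, 745 and 663 in CON_CS, 723, 916, 481 and 419 in DSS_VD and 291, 85.2, 142 and 170.3 in DSS_CS. All 4 DSS_CS libraries lay below the rest, with an interaction of -2.46 ± 0.46 (adjusted p = 0.00941). The glycosylation and goblet counts were each 2 without the 3 accessory gland libraries. Calls were lost by B3galt5, C1galt1 and St3gal4 without the 3 accessory gland libraries and by St3gal4 with no filter on low values. Omitting 1 library ended the call of St3gal4 without any 1 of CON_VD 3, CON_CS 1, CON_CS 4, DSS_CS 2 or DSS_CS 3.

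Pan-epithelial genes that passed had lower responses as well. Of 12 pan-epithelial markers 6 passed (50%, against 13.2% of all tested genes), all lower (median -1.29). They were the microvillus protein Vil1, galectin-4 (Lgals4), Epcam, the transcription factor Elf3, keratin Krt8 and E-cadherin (Cdh1). Vil1 was at 123, 105.1, 122 and 141 FPKM in CON_VD, 147, 145, 147 and 125 in CON_CS, 134, 155, 79.1 and 86.6 in DSS_VD and 61.9, 21.7, 30.6 and 35.9 in DSS_CS. The DSS_CS libraries were the lowest 4, with a response of -0.16 in VD and -1.98 in CS mice and an interaction of -1.82 ± 0.37 (adjusted p = 0.0118). The interactions of Lgals4 and Epcam were -1.80 ± 0.49 (adjusted p = 0.0280) and -1.49 ± 0.42 (adjusted p = 0.0329). The pan-epithelial count was 0 without the 3 accessory gland libraries, 1 without any 1 of CON_VD 3, CON_CS 3, CON_CS 4, DSS_VD 2, DSS_CS 2 or DSS_CS 3, 2 without CON_VD 2 or CON_CS 2, 3 without CON_VD 1 or CON_CS 1 and 10 without DSS_CS 1. Significance was lost by Epcam, Lgals4 and Vil1 without the 3 accessory gland libraries and by Epcam and Lgals4 with no filter on low values and on a square root scale. Leaving out a single library ended the call of Lgals4 without any 1 of CON_VD 3, CON_CS 3, CON_CS 4, DSS_VD 2, DSS_CS 2 or DSS_CS 3 and of Epcam without any 1 of CON_VD 2, CON_VD 3, CON_CS 2, CON_CS 3, CON_CS 4, DSS_VD 2, DSS_CS 2 or DSS_CS 3.

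The cell division genes Tpx2, Kif11, Cenpf and Mki67 fell in CS mice, while their responses in VD mice did not pass. Of 20 cell cycle genes 10 passed (50%, against 13.2% of all tested genes), all lower in CS mice. All 20 estimates were below 0 (median -1.0). Tpx2 and Kif11 build the mitotic spindle, Cenpf acts at kinetochores and Mki67 marks cycling cells. Tpx2 was at 4.08, 4.51, 5.40 and 6.33 FPKM in CON_VD, 12.2, 8.99, 7.58 and 10.5 in CON_CS, 4.73, 7.30, 5.94 and 9.07 in DSS_VD and 5.27, 2.07, 3.56 and 4.86 in DSS_CS. On water the CS libraries lay above the VD libraries, and under DSS the ranges overlapped. Its response was 0.34 in VD and -1.17 in CS mice, with only the second past the threshold, and its interaction -1.502 ± 0.32 (adjusted p = 0.0121). The interactions of Kif11, Cenpf and Mki67 were -1.34 ± 0.29 (adjusted p = 0.0135), -0.83 ± 0.17 (adjusted p = 0.0116) and -1.47 ± 0.33 (adjusted p = 0.0146). Each of these 4 genes, picked among those that passed, had water groups that did not overlap, as did 21.8% of the 2015 genes and 10% of all tested genes. The count was 2 without the 3 accessory gland libraries, 4 without DSS_CS 2, 5 without any 1 of CON_VD 1, CON_VD 3, CON_CS 1 or DSS_CS 3 and 6 without any 1 of CON_VD 2, CON_CS 2, DSS_VD 2 or DSS_VD 4. An adjusted p of at least 0.05 was reached by Cenpf and Mki67 without the 3 accessory gland libraries.

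Retinoid and vitamin response genes passed in 9 of 13 tested of 16 listed (69.2%, against 13.2% of all tested genes). The list's median was -0.84, and of the 9 genes 7 were lower and 2 higher in CS mice. Retinal is oxidised to retinoic acid by retinaldehyde dehydrogenases, and the members of that family moved apart. Aldh1a3 was at 1.88, 2.64, 1.75 and 2.56 FPKM in CON_VD, 19.5, 8.06, 9.74 and 11.3 in CON_CS, 41.9, 144, 77.1 and 69.6 in DSS_VD and 73.8, 31.3, 26.2 and 28.8 in DSS_CS. Aldh1a3 was higher in CS than in VD mice on water and rose in both under DSS (4.59 in VD and 1.58 in CS mice), with an interaction of -3.01 ± 0.51 (adjusted p = 0.00734). It is ENSMUSG00000015134, chromosome 7, 66390890 to 66427517. Aldh1a2 was at 0.670, 0.562, 0.663 and 1.55 FPKM in CON_VD, 0.486, 0.773, 0.797 and 0.265 in CON_CS, 2.10, 1.68, 2.83 and 2.61 in DSS_VD and 6.27, 9.36, 7.79 and 9.78 in DSS_CS. For Aldh1a2 the DSS groups were apart and the rise was larger in CS mice (0.85 in VD and 2.55 in CS mice; interaction 1.71 ± 0.25, adjusted p = 0.00433). Rbp2, the retinol carrier of absorptive cells, and Rdh16, a retinol dehydrogenase, had interactions of -1.90 ± 0.42 (adjusted p = 0.0143) and -2.64 ± 0.61 (adjusted p = 0.0168), and Rbp4, which carries retinol in plasma, was higher (interaction 1.36 ± 0.31, adjusted p = 0.0162). Rarg, a retinoic acid receptor outside this list, had the smallest unadjusted p of the 2015 genes. Rarg was at 3.96, 3.66, 3.66 and 4.22 FPKM in CON_VD, 3.03, 3.05, 3.26 and 3.58 in CON_CS, 5.23, 4.60, 5.81 and 4.72 in DSS_VD and 10.7, 10.8, 8.87 and 9.73 in DSS_CS. It rose in both birth modes (0.32 in VD and 1.38 in CS mice; interaction 1.06 ± 0.12, adjusted p = 0.00221). The threshold was missed by Rbp4 and Rdh16 without the 3 accessory gland libraries.

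**Figure D3:**
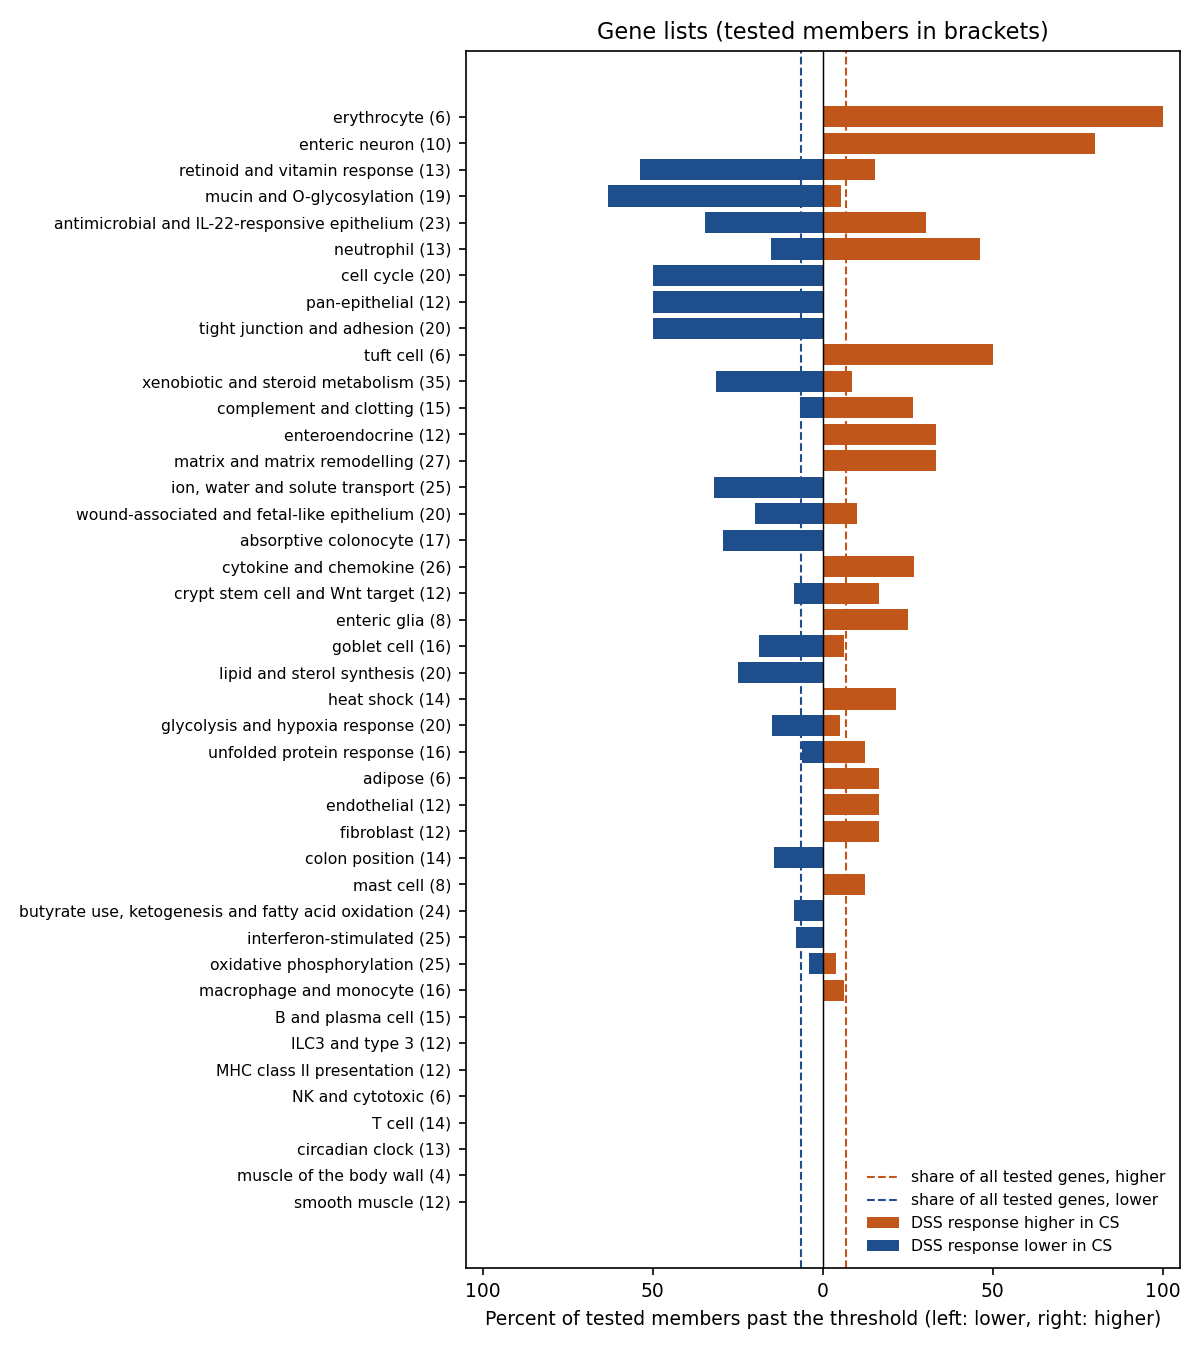
Share of tested members past the threshold for each gene list with at least 4 tested members, in percent on the horizontal axis, with members whose DSS response was lower in CS mice drawn to the left of 0 and higher ones to the right. Dashed lines mark the shares over all tested genes, 6.55% lower and 6.68% higher, and the neuron and erythrocyte bars reach farthest to the right while the junction, pan-epithelial and cell cycle bars lie to the left alone.

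Neutrophil genes that passed had higher responses in CS mice with 2 exceptions. Of 16 listed, 13 were tested and 8 passed (61.5%, against 13.2% of all tested genes), 6 higher and 2 lower (median 1.65). The higher genes included Cxcr2, the receptor for neutrophil chemokines, Csf3r, the receptor for granulocyte colony-stimulating factor, Mmp9, a granule protease, and Trem1, an amplifying receptor. Csf3r was at 0.335, 0.195, 0.128 and 0.361 FPKM in CON_VD, 0.376, 0.198, 0.310 and 0.186 in CON_CS, 11.4, 5.07, 10.3 and 13.4 in DSS_VD and 31.6, 29.5, 32.7 and 35.6 in DSS_CS. The DSS groups did not overlap, and the interaction was 1.65 ± 0.27 (adjusted p = 0.00694). Trem1 was at 0.0645, 0.0247, 0.0299 and 0.0219 FPKM in CON_VD, 0.0146, 0.00710, 0.0231 and 0.0397 in CON_CS, 2.64, 3.11, 2.99 and 5.09 in DSS_VD and 15.5, 8.22, 34.2 and 43.5 in DSS_CS. Its interaction was 2.36 ± 0.50 (adjusted p = 0.0122), and that of Mmp9 was 1.78 ± 0.34 (adjusted p = 0.0103). The exceptions were lactoferrin (Ltf), an iron-binding protein of neutrophils and of glandular epithelium, and Ly6g. Ltf was at 0.108, 0.0220, 0.0572 and 0.0217 FPKM in CON_VD, 0.145, 0.0184, 0.0108 and 0.175 in CON_CS, 38.0, 46.0, 14.95 and 19.8 in DSS_VD and 6.66, 1.03, 2.87 and 2.15 in DSS_CS. Ltf rose in both birth modes and was higher in the 4 DSS_VD than in the 4 DSS_CS libraries (4.73 in VD and 1.78 in CS mice; interaction -2.95 ± 0.50, adjusted p = 0.00731). Ly6g averaged 103 ± 50.4 FPKM in CON_VD, where Csf3r averaged 0.255 ± 0.112, and has close paralogs, so its reads could be shared with other Ly6 genes. Its interaction was -2.15 ± 0.48 (adjusted p = 0.0143). The count was 3 without the 3 accessory gland libraries. Calls were lost by Ly6g and Mmp9 without the 3 accessory gland libraries.

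Of 26 cytokines and chemokines 7 passed (26.9%, against 13.2% of all tested genes), all with a larger rise in CS mice (median 0.81). They were the interleukin-6 family cytokine Osm, the chemokines Ccl3 and Ccl4, the neutrophil attractants Cxcl2 and Cxcl3, and interleukin-1 (Il1a and Il1b). Osm was at 0.387, 0.0170, 0.110 and 0.147 FPKM in CON_VD, 0.0506, 0.0135, 0.0913 and 0.0524 in CON_CS, 2.69, 1.62, 2.07 and 3.01 in DSS_VD and 14.6, 7.89, 15.2 and 24.2 in DSS_CS. The 4 DSS_CS libraries were above all others (response 1.51 in VD and 3.87 in CS mice; interaction 2.36 ± 0.33, adjusted p = 0.00279). Ccl4 was at 1.22, 0.0462, 0.425 and 0.0857 FPKM in CON_VD, 0.279, 0, 0.0950 and 0.104 in CON_CS, 5.46, 4.19, 2.58 and 5.58 in DSS_VD and 53.8, 17.7, 34.0 and 27.01 in DSS_CS. Its interaction was 2.88 ± 0.42 (adjusted p = 0.00423), again with DSS groups apart. Il1b rose to 37.9 ± 12.8 FPKM in DSS_VD and 159 ± 49.5 in DSS_CS (interaction 2.34 ± 0.49, adjusted p = 0.0120). The interactions of Ccl3, Cxcl2, Cxcl3 and Il1a were 2.12, 2.21, 1.44 and 1.39. The DSS ranges overlapped for Cxcl2 alone of the 7, while they were apart for 71.1% of the 2015 genes and 21.8% of all tested genes. Il1f9, the epithelial and myeloid cytokine interleukin-36 gamma, is outside this list. Il1f9 was listed at 0 in all 8 water libraries and was at 1.72, 0.599, 1.03 and 1.91 FPKM in DSS_VD and 10.9, 5.15, 10.1 and 11.1 in DSS_CS. It rose in both birth modes, more in CS mice (interaction 2.15 ± 0.29, adjusted p = 0.00264). Significance was lost by Ccl3, Il1a and Il1b at a pseudocount of 0.1 and by Cxcl2 and Il1a without the 3 accessory gland libraries.

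Interferon-stimulated genes had lower estimates in CS mice but few calls. Of 25 genes 24 estimates were below 0 with a median of -1.28, and 2 passed, 8%, which is under the 13.2% of all tested genes. The 2 were the guanylate-binding proteins Gbp2 and Gbp7. Gbp2 was at 40.2, 9.57, 8.68 and 15.2 FPKM in CON_VD, 55.2, 35.5, 39.9 and 41.3 in CON_CS, 107, 125, 103 and 52.7 in DSS_VD and 62.4, 38.5, 35.3 and 33.4 in DSS_CS. Gbp2 rose in VD mice, and its CS response did not pass (2.53 in VD and -0.05 in CS mice; interaction -2.58 ± 0.55, adjusted p = 0.0124), and the DSS ranges overlapped. Gbp7 had an interaction of -1.33 ± 0.36 (adjusted p = 0.0279). The summed level of the 25 genes was 101 to 712 in CON_VD, 179.9 to 464 in CON_CS, 344 to 1216 in DSS_VD and 279.8 to 490.5 in DSS_CS, so CON_VD reached from the lowest value of all to above every DSS_CS library. Outside the list, Ifit1bl1, a relative of the interferon-induced Ifit genes, averaged 192 ± 73.7 FPKM in DSS_VD and 43.8 ± 36.5 in DSS_CS (interaction -3.00 ± 0.61, adjusted p = 0.0118). Apol7c, an apolipoprotein L gene, rose in VD and fell in CS mice (1.62 in VD and -1.205 in CS mice; interaction -2.83 ± 0.63, adjusted p = 0.0145). Ido1, which degrades tryptophan and responds to interferon, had a response of 3.30 in VD and 0.76 in CS mice, with only the first past the threshold (interaction -2.54 ± 0.55, adjusted p = 0.0132). The count was 0 without the 3 accessory gland libraries, 1 without any 1 of CON_VD 3, CON_CS 1, CON_CS 2 or DSS_CS 2 and 8 without CON_VD 1. An adjusted p of at least 0.05 was reached by Apol7c, Gbp2, Gbp7, Ido1 and Ifit1bl1 without the 3 accessory gland libraries and by Gbp7 with no filter on low values. Removal of 1 library ended the call of Gbp7 without any 1 of CON_VD 3, CON_CS 1, CON_CS 2 or DSS_CS 2.

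Lymphocyte and antigen presentation lists gave no calls in limma. None of 14 T cell genes and none of 6 natural killer and cytotoxic genes passed, with 0 and 0 at an unadjusted p under 0.05. None of 15 B and plasma cell genes and none of 12 major histocompatibility complex class II genes passed, with 4 and 0 at an unadjusted p under 0.05. Leaving out single libraries gave up to 3 B and plasma cell genes. Of the 2015 genes 6 were immunoglobulin variable segments, all higher in CS mice, of 183 tested, a share under the 13.2% of all tested genes.

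Matrix genes that passed had higher responses in CS mice. All 27 matrix and remodelling genes had an estimate above 0 and 9 passed (33.3%, against 13.2% of all tested genes), all higher (median 0.89). Timp1 inhibits matrix proteases, Mmp13 cuts fibrillar collagen, Lox cross-links collagen, Tnc is a wound matrix protein and Plau activates plasminogen. Timp1 was at 1.95, 1.78, 2.98 and 1.90 FPKM in CON_VD, 1.74, 2.51, 1.46 and 1.74 in CON_CS, 45.4, 40.7, 69.3 and 49.995 in DSS_VD and 152, 204, 137 and 94.4 in DSS_CS. The DSS groups did not overlap (response 4.04 in VD and 5.65 in CS mice; interaction 1.61 ± 0.30, adjusted p = 0.00941). Lox was at 1.21, 1.17, 1.21 and 1.31 FPKM in CON_VD, 1.23, 1.71, 1.62 and 1.63 in CON_CS, 12.1, 8.49, 15.2 and 16.01 in DSS_VD and 29.1, 33.9, 33.6 and 34.4 in DSS_CS. Its interaction was 1.12 ± 0.20 (adjusted p = 0.00888), with DSS_CS above DSS_VD in every library. The interactions of Mmp13, Tnc and Plau were 1.4996 ± 0.33 (adjusted p = 0.0143), 1.48 ± 0.35 (adjusted p = 0.0178) and 1.60 ± 0.33 (adjusted p = 0.0119). The count was 17 without DSS_CS 1. Summed fibroblast markers were 250.4 to 272 in CON_VD, 278 to 333 in CON_CS, 491 to 1039 in DSS_VD and 1335 to 1735 in DSS_CS. Of those 12 markers 2 passed, the collagen gene Col1a1 and the growth factor receptor Pdgfrb, a share of 16.7% against 13.2% of all tested genes. The fibroblast count was 0 without the 3 accessory gland libraries and without any 1 of CON_VD 3, CON_CS 2, CON_CS 3, CON_CS 4, DSS_CS 2 or DSS_CS 3. It was 1 without any 1 of CON_VD 1, CON_VD 4, CON_CS 1 or DSS_VD 2 and 4 without DSS_VD 3. Smoc2, a matricellular protein also expressed by stem cells, had a response of -0.25 in VD and 1.13 in CS mice (interaction 1.38 ± 0.24, adjusted p = 0.00734).

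**Figure D4:**
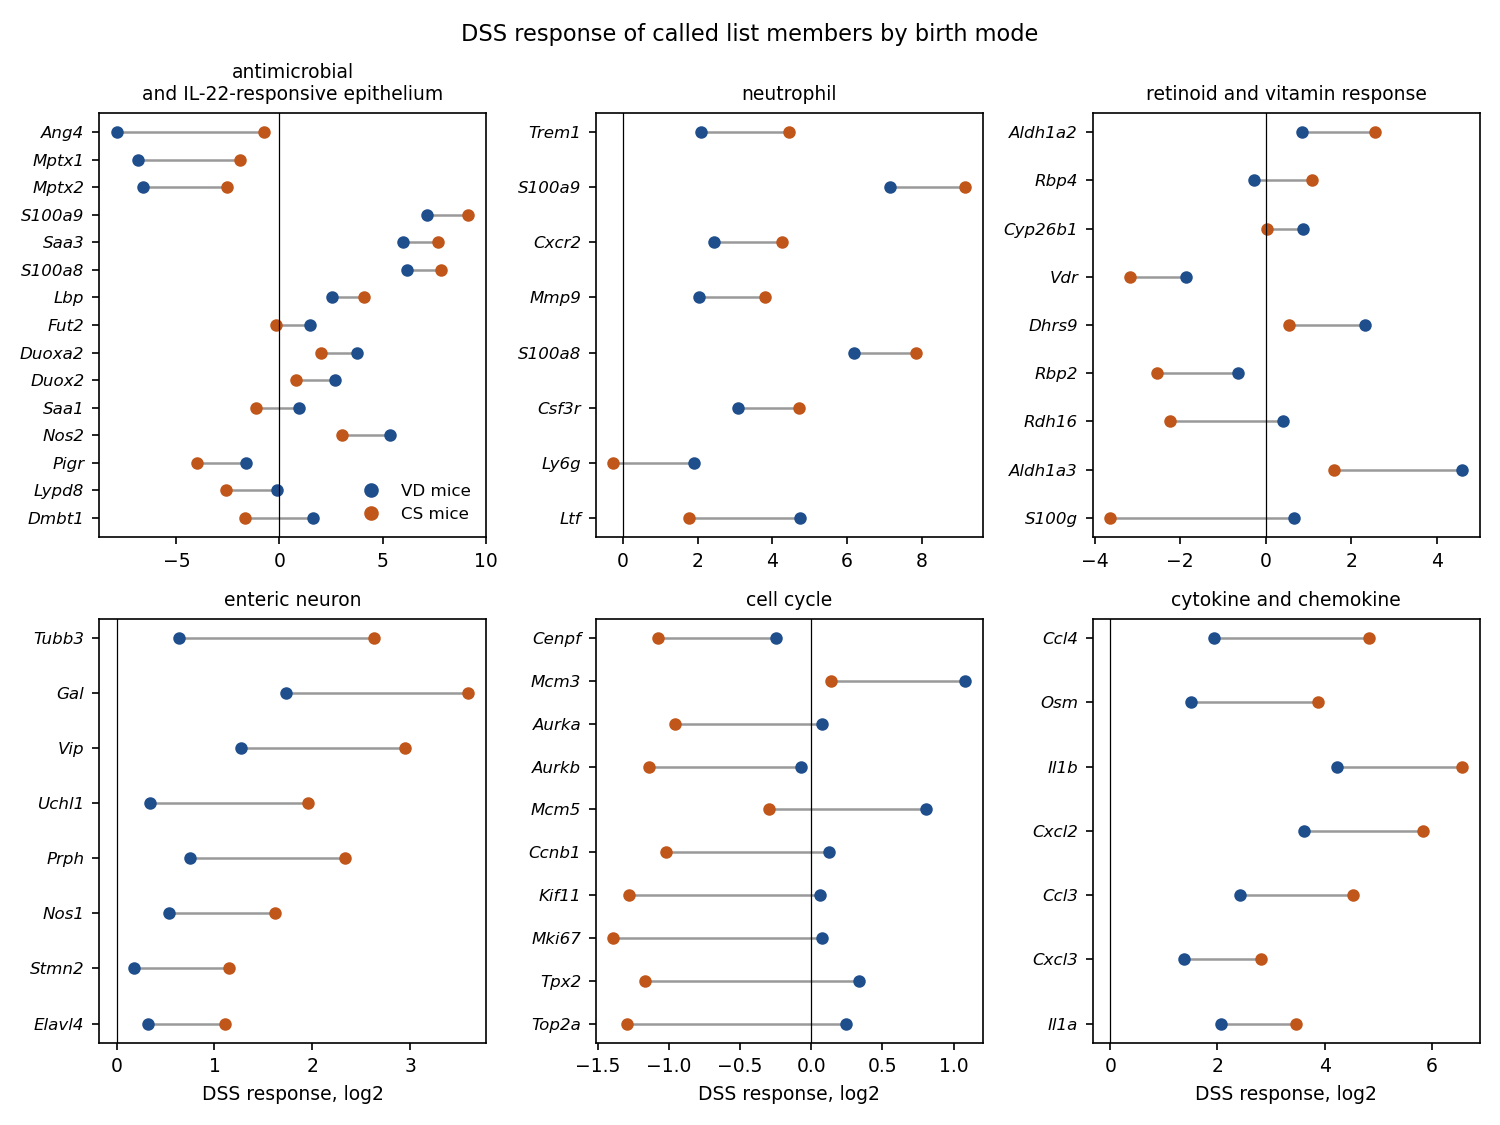
DSS response in log2(FPKM + 1) on the horizontal axis for the members of 6 lists that passed the threshold, with 1 line a gene joining the response in VD mice (blue) to that in CS mice (orange). Orange points lie to the right for every neuron and cytokine gene shown and to the left for every cell cycle gene, and the antimicrobial, neutrophil and retinoid panels hold both directions.

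Enteric neuron genes that passed had higher responses in CS mice. Of 12 listed, 10 were tested and 8 passed (80%, against 13.2% of all tested genes), all higher (median 1.33). Tubb3 is the neuronal tubulin, Stmn2 a regulator of axonal microtubules and Vip a neuropeptide that drives secretion and relaxes muscle. Tubb3 was at 3.64, 2.71, 3.38 and 2.80 FPKM in CON_VD, 2.04, 2.14, 1.23 and 1.30 in CON_CS, 4.66, 5.38, 5.63 and 6.08 in DSS_VD and 15.2, 25.9, 13.8 and 10.3 in DSS_CS. The 4 DSS_CS libraries were the highest and the 4 CON_CS libraries the lowest (ENSMUSG00000062380, chromosome 8, 123411424 to 123422015; interaction 1.99 ± 0.29, adjusted p = 0.00398). Vip was at 13.4, 7.80, 15.8 and 10.9 FPKM in CON_VD, 7.30, 11.8, 7.55 and 7.21 in CON_CS, 26.5, 25.6, 27.6 and 40.5 in DSS_VD and 76.7, 104, 61.9 and 50.3 in DSS_CS. The DSS groups did not overlap (response 1.27 in VD and 2.95 in CS mice; interaction 1.67 ± 0.34, adjusted p = 0.0118). Stmn2 and Uchl1, a neuronal ubiquitin hydrolase, had interactions of 0.97 ± 0.18 (adjusted p = 0.00861) and 1.61 ± 0.34 (adjusted p = 0.0119). Summed neuron markers were 27.4 to 41.3 in CON_VD, 20.0 to 29.1 in CON_CS, 68.5 to 89.3 in DSS_VD and 117 to 317 in DSS_CS, with the highest in DSS_CS 2 and the next in DSS_CS 1, which are not among the accessory gland libraries. Without those 3 libraries 9 of the 10 passed, and the count was 5 without any 1 of CON_VD 1, CON_VD 3, CON_CS 3, CON_CS 4 or DSS_VD 1. None of 12 smooth muscle genes passed (0 at an unadjusted p under 0.05), though all 12 estimates were above 0 (median 0.48). The smooth muscle count was 1 without the 3 accessory gland libraries and 1 without DSS_CS 4. Summed smooth muscle markers were 1374 to 1751 in DSS_VD and 1526 to 3566 in DSS_CS, highest in DSS_CS 2. The part of muscle content in the neuron results was not tested. Of 8 glial genes 2 passed (25%, against 13.2% of all tested genes), Cdh19 and Gap43, or 1 without DSS_CS 1 or DSS_CS 2.

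Hormone genes of enteroendocrine cells passed in 4 of 12 (33.3%, against 13.2% of all tested genes), all higher (median 0.67). They were Sst, given above, chromogranin A (Chga), the secretory granule protein Scg5 and the prohormone-processing carboxypeptidase Cpe. Scg5 was at 9.03, 7.13, 8.33 and 7.55 FPKM in CON_VD, 5.04, 7.69, 5.48 and 7.07 in CON_CS, 16.2, 13.5, 13.5 and 16.5 in DSS_VD and 27.9, 52.8, 27.2 and 22.6 in DSS_CS. The DSS groups did not overlap (interaction 1.32 ± 0.28, adjusted p = 0.0132). Chga and Cpe had interactions of 1.31 ± 0.31 (adjusted p = 0.0184) and 0.95 ± 0.24 (adjusted p = 0.0227). Chga, Scg5 and Cpe are also made by neurons. The peptide hormones Gcg, Pyy and Insl5 did not pass. Of 12 tuft cell genes 6 were tested and 3 passed (50%, against 13.2% of all tested genes), or 0 without the 3 accessory gland libraries. The 3 that passed were Alox5 (interaction 0.80 ± 0.21, adjusted p = 0.0258), Alox5ap (interaction 1.08 ± 0.26, adjusted p = 0.0178) and Ltc4s (interaction 1.26 ± 0.27, adjusted p = 0.0136). These 3 make leukotrienes in myeloid and mast cells too, and the tuft cell markers Trpm5, Pou2f3, Gfi1b and Il25 were below the level for testing. The threshold was missed by Alox5, Alox5ap, Chga and Ltc4s without the 3 accessory gland libraries and by Alox5 and Cpe with no filter on low values. Omitting 1 library ended the call of Alox5 without CON_VD 3 or DSS_CS 3.

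Red cell genes had some of the largest interactions above 0. Of 8 listed, 6 were tested and all 6 passed (median 4.27), against 13.2% of all tested genes. The globins Hba-a1, Hba-a2, Hbb-bs and Hbb-bt and the heme synthesis enzyme Alas2 were among them. Hbb-bt was at 69.5, 10.7, 21.5 and 22.3 FPKM in CON_VD, 5.70, 3.94, 3.02 and 9.08 in CON_CS, 147, 101, 57.1 and 216 in DSS_VD and 529, 185, 2108 and 1570.5 in DSS_CS. DSS_CS 3 and DSS_CS 4 were the highest, DSS_CS 2 lay below DSS_VD 4, and the interaction was 4.76 ± 0.98 (adjusted p = 0.0119). Those of Hba-a2, Hbb-bs and Hba-a1 were 4.72 ± 0.94 (adjusted p = 0.0113), 4.28 ± 0.94 (adjusted p = 0.0139) and 4.25 ± 0.96 (adjusted p = 0.0153), and the globin copies are near-identical, so the split between them is uncertain. Summed red cell markers were 53.9 to 332 in CON_VD, 28.9 to 48.2 in CON_CS, 242 to 977 in DSS_VD and 904 to 9743 in DSS_CS, and the highest 2 were the DSS_CS accessory gland libraries. The part of those libraries in these genes was not tested. The count was 1 without the 3 accessory gland libraries. Hp, the plasma protein haptoglobin that binds free hemoglobin, also rose more in CS mice (4.10 in VD and 6.47 in CS mice; interaction 2.37 ± 0.48, adjusted p = 0.0118).

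Cfd and Car3, abundant in fat tissue, also had large interactions above 0. Cfd was at 10.5, 0.214, 47.8 and 6.92 FPKM in CON_VD, 0.395, 2.58, 1.85 and 0 in CON_CS, 0, 0, 12.6 and 1.91 in DSS_VD and 13.4, 27.4, 15.6 and 104 in DSS_CS. Cfd varied widely within 3 of the groups and was above DSS_VD in each DSS_CS library (interaction 5.68 ± 1.45, adjusted p = 0.0237). Car3, a carbonic anhydrase, had an interaction of 3.88 ± 1.18 (adjusted p = 0.0442) and overlapping ranges. Of 10 adipose markers 6 were tested and only Cfd passed, a share of 16.7% against 13.2% of all tested genes. The adipose count was 0 without the 3 accessory gland libraries, 2 without DSS_VD 3 or DSS_CS 3 and 3 without CON_VD 4 or DSS_CS 1. Adipoq, Plin1 and Lep were below the level for testing. Retnla, a resistin-like protein of fat and of alternatively activated macrophages, fell in VD and rose in CS mice. Retnla was at 23.5, 10.8, 15.8 and 11.3 FPKM in CON_VD, 15.1, 5.11, 9.48 and 5.61 in CON_CS, 7.17, 3.74, 6.23 and 3.12 in DSS_VD and 26.0, 9.21, 28.5 and 14.96 in DSS_CS. The interaction was 2.49 ± 0.54 (adjusted p = 0.0132). Calls were lost by Alas2, Car3, Cfd, Hba-a1, Hbb-bs, Hbb-bt and Hp without the 3 accessory gland libraries, by Alas2, Car3 and Cfd with no filter on low values and by Car3 at a pseudocount of 0.1, at a pseudocount of 5, on a square root scale and with robust variance estimation. Leaving out a single library ended the call of Alas2 without DSS_VD 2 and of Car3 without any 1 library other than CON_VD 2, DSS_VD 3, DSS_CS 1 or DSS_CS 3.

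**Figure D5:**
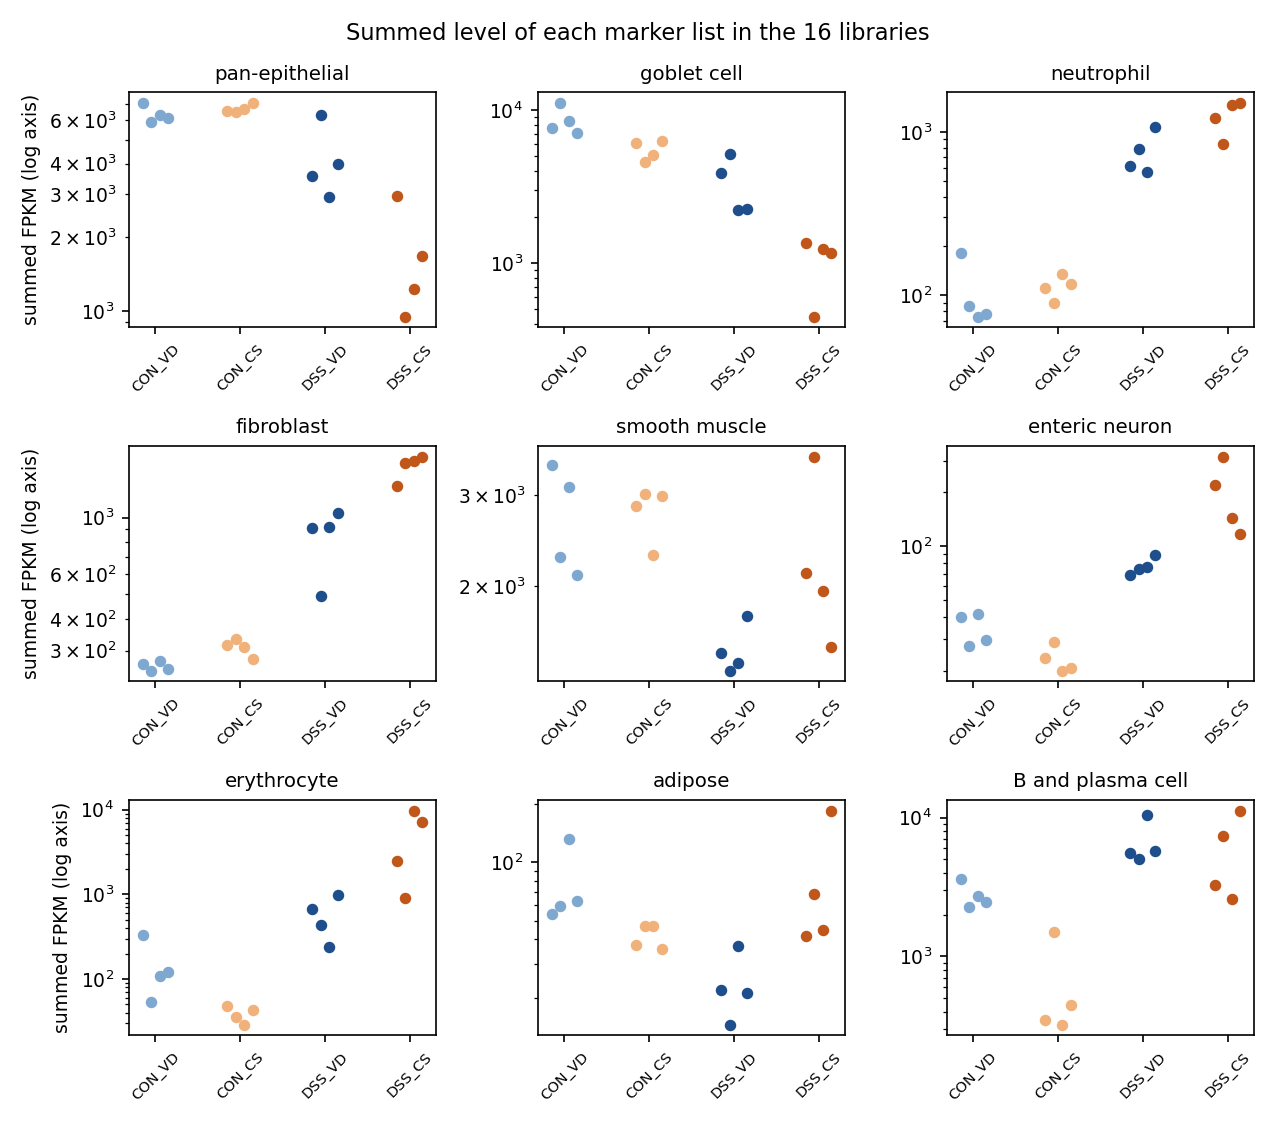
Summed FPKM of 9 marker lists on a log vertical axis, with 1 panel a list and each of the 16 libraries as a point in its group on the horizontal axis. Pan-epithelial and goblet cell sums are lowest in DSS_CS, fibroblast and neuron sums are highest there, and the erythrocyte sums of 2 DSS_CS libraries stand above the rest.

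Genes of xenobiotic and steroid metabolism passed in 14 of 35 tested of 43 listed (40%, against 13.2% of all tested genes). The list's median was -0.80, and of the 14 genes 11 were lower and 3 higher in CS mice. Hsd11b2 inactivates glucocorticoids in colonocytes. Hsd11b2 was at 119, 90.6, 112 and 108 FPKM in CON_VD, 125, 106, 116 and 111 in CON_CS, 12.0, 20.8, 8.59 and 13.7 in DSS_VD and 4.53, 0.428, 1.24 and 2.50 in DSS_CS. It fell in both birth modes, by more in CS mice (-2.93 in VD and -5.36 in CS mice; interaction -2.43 ± 0.45, adjusted p = 0.00941). The lower genes also held the carboxylesterases Ces2a, Ces2c and Ces2e, which hydrolyse esters and drugs, and the sulfotransferases Sult1b1 and Sult1d1. Ces2f, another carboxylesterase, which is outside the list, was among the genes with the smallest adjusted p. Ces2f was at 0.153, 0.289, 0.285 and 0.133 FPKM in CON_VD, 0.309, 0.309, 0.359 and 0.171 in CON_CS, 5.38, 2.35, 2.69 and 4.47 in DSS_VD and 0.387, 0.152, 0.264 and 0.302 in DSS_CS. It rose in VD mice and kept overlapping ranges in CS mice (interaction -1.92 ± 0.23, adjusted p = 0.00221), with the reads of these near paralogs open to misassignment. Only the 4 DSS_VD libraries reached an FPKM of 1 for Ces2f, so it was tested only through the group where it is high. Without any 1 of them it fell below the level for testing, and it was tested in 23 of the 28 alternatives. The higher genes were Hsd3b3, given above, and the cytochromes Cyp2f2 (interaction 0.89 ± 0.25, adjusted p = 0.0315) and Cyp4b1 (interaction 0.69 ± 0.21, adjusted p = 0.0422). The count was 2 without the 3 accessory gland libraries, 8 without DSS_VD 2 and 9 without CON_VD 3 or CON_CS 1. Significance was lost by Cyp2f2 and Cyp4b1 at a pseudocount of 0.1 and with no filter on low values, by Cyp2f2 after scaling to TPM and without the 3 accessory gland libraries and by Cyp4b1 with library weights. Removal of 1 library ended the call of Cyp2f2 without any 1 of CON_VD 2, CON_VD 3, CON_CS 1, CON_CS 4, DSS_VD 2, DSS_CS 2, DSS_CS 3 or DSS_CS 4. Cyp4b1 lost its call without any 1 CON_VD library. It also lost it without any 1 of CON_CS 1, CON_CS 3, CON_CS 4, DSS_VD 1, DSS_VD 2 or DSS_VD 4. Cyp4b1 was tested in only 22 of the 28 alternatives and kept its call in 8. Beyond those 22 it was below the level for testing, so a removal not named here need not have kept the call.

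Of 20 lipid and sterol genes 5 passed (25%, against 13.2% of all tested genes), all lower in CS mice (median -0.79). They included Hmgcs1, Fdft1 and Lss, enzymes of cholesterol synthesis. The count was 0 without the 3 accessory gland libraries, 1 without any 1 of CON_VD 3, DSS_VD 2 or DSS_CS 3, 2 without any 1 of CON_CS 2, CON_CS 4 or DSS_CS 2, 3 without any 1 of CON_VD 2, CON_CS 3, DSS_VD 4 or DSS_CS 4 and 8 without DSS_VD 3.

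Of 20 glycolysis and hypoxia response genes 4 passed, Egln3, Hk2 and Adm lower and the glucose transporter Slc2a3 higher (median -0.33; 2 without the 3 accessory gland libraries). Egln3 is a prolyl hydroxylase that acts on hypoxia-inducible factor, and Hk2 is a hexokinase. Egln3 was at 33.4, 31.4, 28.4 and 16.1 FPKM in CON_VD, 33.1, 36.6, 65.9 and 61.7 in CON_CS, 70.6, 75.0, 61.8 and 65.8 in DSS_VD and 43.5, 21.4, 29.1 and 29.7 in DSS_CS. It rose in VD and fell in CS mice (1.34 in VD and -0.64 in CS mice; interaction -1.97 ± 0.37, adjusted p = 0.00950). Hk2 had a response of 1.89 in VD and -0.02 in CS mice, with only the first past the threshold (interaction -1.90 ± 0.41, adjusted p = 0.0135). Of 16 unfolded protein response genes 3 passed, Ddit3 and Atf4 higher and Ern2 lower. Ddit3 encodes the stress transcription factor CHOP. Ddit3 was at 15.1, 11.6, 9.81 and 10.3 FPKM in CON_VD, 8.04, 6.55, 7.52 and 7.62 in CON_CS, 8.18, 7.99, 8.38 and 6.59 in DSS_VD and 9.57, 11.4, 10.5 and 14.7 in DSS_CS. It fell in VD and rose in CS mice (-0.52 in VD and 0.56 in CS mice; interaction 1.08 ± 0.19, adjusted p = 0.00849). Of 14 heat shock genes 3 passed, all higher: the small chaperone Hspb1 (interaction 1.83 ± 0.46, adjusted p = 0.0223), its co-chaperone Bag3 (interaction 1.10 ± 0.31, adjusted p = 0.0323) and Cryab (interaction 1.01 ± 0.29, adjusted p = 0.0351). The shares that passed were 20% of the glycolysis, 18.8% of the unfolded protein response and 21.4% of the heat shock genes. Over all tested genes the share was 13.2%. The heat shock count was 1 without any 1 of CON_CS 2, CON_CS 3, CON_CS 4 or DSS_CS 2 and 6 without CON_VD 2. An adjusted p of at least 0.05 was reached by Bag3, Cryab and Hspb1 with no filter on low values, by Bag3 and Hk2 without the 3 accessory gland libraries, by Bag3 and Cryab after scaling to TPM and by Cryab with library weights. Omitting 1 library ended the call of Bag3 without any 1 of CON_CS 2, CON_CS 3, CON_CS 4, DSS_VD 1, DSS_CS 2 or DSS_CS 3 and of Cryab without any 1 of CON_VD 1, CON_VD 4, CON_CS 1, CON_CS 2, CON_CS 3, CON_CS 4, DSS_VD 2 or DSS_CS 2.

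Wound-associated and fetal-like epithelial genes passed in 6 of 20 tested of 22 listed (30%, against 13.2% of all tested genes). The list's median was -0.32, and of the 6 genes 4 were lower and 2 higher. Anxa8, an annexin of regenerating epithelium, was the lowest. Anxa8 was at 4.43, 2.73, 10.5 and 6.26 FPKM in CON_VD, 24.2, 24.6, 40.4 and 37.5 in CON_CS, 82.9, 164, 89.5 and 105.3 in DSS_VD and 149, 107, 68.7 and 66.5 in DSS_CS. CON_CS lay above CON_VD and the DSS groups overlapped, and the smaller rise in CS mice (4.07 in VD and 1.55 in CS mice; interaction -2.52 ± 0.48, adjusted p = 0.0103) began from a higher level on water. Ly6a and Lama3 were also lower, and the growth factor Ereg and osteopontin (Spp1) were higher. The serine protease Prss27, the adhesion receptor Adgrf1 and the ubiquitin ligase Trim15, outside the list, also rose less in CS mice. Prss27 was at 0.0318, 0.238, 0 and 0.175 FPKM in CON_VD, 0.139, 0.222, 0.178 and 0.374 in CON_CS, 8.28, 12.5, 9.24 and 5.80 in DSS_VD and 3.72, 0.953, 0.592 and 0.720 in DSS_CS. The DSS groups did not overlap for Prss27 (interaction -2.26 ± 0.39, adjusted p = 0.00777), and the interactions of Adgrf1 and Trim15 were -2.22 ± 0.49 (adjusted p = 0.0139) and -2.53 ± 0.62 (adjusted p = 0.0197). The list's count was 1 without the 3 accessory gland libraries, 2 without any 1 of CON_VD 3, DSS_VD 2 or DSS_CS 3 and 3 without any 1 library other than CON_VD 2, CON_VD 3, DSS_VD 2, DSS_VD 3, DSS_VD 4, DSS_CS 1 or DSS_CS 3. The threshold was missed by Anxa8 on a square root scale and by Trim15 with no filter on low values and without the 3 accessory gland libraries.

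Ephb6, an ephrin receptor without kinase activity, and Atp2c2, a calcium pump of the secretory pathway, shared the smallest adjusted p with Ang4, Dmbt1, Rarg, Ces2f, B3gnt5, Mirt2 and Nat14. Ephb6 was at 0.694, 0.640, 1.69 and 1.28 FPKM in CON_VD, 5.32, 5.97, 4.78 and 3.12 in CON_CS, 3.01, 3.94, 2.27 and 3.33 in DSS_VD and 2.10, 1.42, 1.45 and 1.36 in DSS_CS. Its groups crossed, with CS above VD on water and below VD under DSS and no overlap in either (response 1.01 in VD and -1.15 in CS mice; interaction -2.16 ± 0.27, adjusted p = 0.00221). Atp2c2 was at 22.1, 33.5, 30.1 and 24.2 FPKM in CON_VD, 38.5, 37.2, 47.6 and 44.5 in CON_CS, 19.9, 25.7, 18.4 and 11.8 in DSS_VD and 5.37, 3.45, 5.45 and 4.65 in DSS_CS. The 4 DSS_CS libraries were the lowest and the 4 CON_CS libraries the highest (interaction -2.37 ± 0.28, adjusted p = 0.00221). Ly6c2, a surface protein of classical monocytes, was the 1 of 16 macrophage and monocyte genes that passed (6.25%, against 13.2% of all tested genes). It averaged 4.01 ± 0.923 FPKM in CON_VD, 1.54 ± 0.842 in CON_CS, 8.99 ± 2.33 in DSS_VD and 10.8 ± 2.13 in DSS_CS (interaction 1.26 ± 0.30, adjusted p = 0.0186), and 1 to 3 genes of this list passed when single libraries were left out. Calls were lost by Ly6c2 with library weights and without the 3 accessory gland libraries.

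The remaining lists had shares from 0% to 33.3%, against 13.2% of all tested genes. Of 15 complement and clotting genes 5 passed (median 0.57), with clotting factors F10 and F13a1, thrombomodulin (Thbd) and the protease inhibitor Tfpi2 higher in CS mice and the plasminogen activator Plat lower. Of 12 crypt stem cell genes 3 passed, Smoc2 and the adhesion receptor Cd44 higher and Rnf43, an inhibitor of Wnt signalling, lower (median 0.01). Of 12 endothelial genes Vwf and Eng passed, both higher, and of 14 colon position genes 2 passed, both lower, among them the hindgut transcription factor Hoxb13. Of 24 genes of butyrate use and fatty acid oxidation 2 passed, both lower, among them Acadl, and of 25 oxidative phosphorylation genes Ndufa4 was higher and Cox5a lower. Hdc, which makes histamine, was the 1 of 8 mast cell genes that passed, and 1 of 3 tested mesothelial genes passed. Without the 3 accessory gland libraries the endothelial, colon position, butyrate and oxidative phosphorylation counts were each 0, and the complement count was 2. Of the complement and clotting genes 3 passed without any 1 of CON_CS 4, DSS_VD 2, DSS_CS 2 or DSS_CS 3. The crypt count was 1 without CON_VD 3. Leaving out single libraries gave 0 to 5 colon position genes, and without most single libraries 1 endothelial gene and 0 or 1 gene of the butyrate and the oxidative phosphorylation lists passed. None of 13 circadian clock genes and none of 4 genes of body wall muscle passed in limma, with 2 and 0 at an unadjusted p under 0.05. The circadian count was 1 without any 1 of CON_VD 2, CON_VD 4 or DSS_VD 4.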

How the data were processed

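RNA-seq of colon from 16 libraries was analysed, with 4 groups of 4 taken from the sample labels. Total RNA was extracted with Trizol and made into Illumina libraries, per the labels' protocols. Reads were handled with cutadapt and FastQC and build GRCm38 was used, per the submitters' processing notes, and no source used here names the aligner, counting tool, strand setting or annotation. The authors deposited 1 table of FPKM values (fragments scaled by gene length and library depth), which holds no counts, so depth is unknown. Each library's FPKM values sum to between 280135 and 343423, and 0 columns were left unused. Of 39328 gene identifiers 39181 matched a symbol and a position in a reference table (GENCODE M21, GRCm38) and 147 did not.

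Genes with an FPKM of at least 1 in at least 4 libraries were tested on log2(FPKM + 1), a scale that understates changes of low genes. A limma 3.58.1 model in R 4.3.3 gave each group its own mean over all 16 libraries, with a variance prior that follows the mean level. The interaction and each single response came from that fit, with Benjamini-Hochberg adjustment over all tested genes and a threshold of 0.05. The code was tested on simulated data. Within groups, pairs of libraries correlated at 0.938 to 0.981 across genes.

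Members and gene lists (44 lists, 737 genes) were chosen with earlier results of these data known. A rule named 45 of the genes given here: the 10 largest interactions in each direction with a mean FPKM of at least 5 in some group, the 3 members of smallest p in each of the 8 lists with the highest share called, and 12 genes taken whatever their values. Further genes were chosen after their values were seen. Some genes are not reported here. The alternatives tried were other pseudocounts, filters, scalings and variance settings, a size threshold, a replicate term and leaving out libraries. Leaving out the 3 accessory gland libraries was chosen after seeing the data. Figures were drawn with matplotlib 3.10.9.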

Additional observations from a re-analysis of the deposited data

Results flagged for a closer look

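Every result below was selected because the DSS response differed between CS and VD mice by limma's test of the interaction, or because a library lay far from the other 3 of its group. The first kind covered 2015 genes and includes the genes named above, whose interactions in log2(FPKM + 1) follow by role.

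Among secreted antimicrobial and epithelial defence genes the interaction was 7.13 for Ang4, 4.98 for Mptx1, 4.09 for Mptx2, -3.33 for Dmbt1, -2.47 for Lypd8 and -2.39 for Pigr. It was -1.87 for Duox2, -2.33 for Nos2, -1.89 for Nlrc4, 1.57 for Lbp and 2.02 for S100a9. Among transport and calcium genes it was -2.18 for Slc26a3, -1.203 for Scnn1b, -1.54 for Slc6a14, -1.80 for Ceacam1, -2.70 for Car4 and -2.55 for Slc15a1, and -4.30 for S100g, -3.88 for Trpv6, -1.31 for Vdr, -4.64 for Clca4b, -3.29 for Abcg5, -3.09 for Tmem45b and -2.37 for Atp2c2. Among epithelial structure and glycosylation genes it was -2.50 for Cldn8, -1.88 for Dsg2, -1.82 for Vil1, -1.80 for Lgals4, -1.49 for Epcam and -2.46 for Muc13, and -1.52 for Galnt7, -1.11 for C1galt1, -2.15 for B3galt5, 0.78 for St3gal4 and -2.30 for B3gnt5. Among cell division genes it was -1.502 for Tpx2, -1.34 for Kif11, -0.83 for Cenpf and -1.47 for Mki67. Among wound-associated and related epithelial genes it was -2.52 for Anxa8, -2.26 for Prss27, -2.22 for Adgrf1, -2.53 for Trim15 and -2.16 for Ephb6.

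Among neutrophil and monocyte genes it was 1.65 for Csf3r, 2.36 for Trem1, 1.78 for Mmp9, -2.95 for Ltf, -2.15 for Ly6g and 1.26 for Ly6c2. Cytokine and chemokine genes had values of 2.36 for Osm, 2.88 for Ccl4, 2.12 for Ccl3, 2.34 for Il1b, 1.39 for Il1a, 2.21 for Cxcl2, 1.44 for Cxcl3 and 2.15 for Il1f9. Interferon-related genes had values of -2.58 for Gbp2, -1.33 for Gbp7, -3.00 for Ifit1bl1, -2.83 for Apol7c and -2.54 for Ido1. Matrix genes had values of 1.61 for Timp1, 1.12 for Lox, 1.48 for Tnc, 1.4996 for Mmp13, 1.60 for Plau and 1.38 for Smoc2. Neuron and hormone genes had values of 1.99 for Tubb3, 0.97 for Stmn2, 1.67 for Vip, 1.61 for Uchl1, 1.80 for Sst, 1.31 for Chga, 1.32 for Scg5 and 0.95 for Cpe, and the leukotriene genes of 0.80 for Alox5, 1.08 for Alox5ap and 1.26 for Ltc4s. Red cell, plasma and fat genes had values of 4.76 for Hbb-bt, 4.72 for Hba-a2, 4.28 for Hbb-bs, 4.25 for Hba-a1, 2.81 for Alas2, 2.37 for Hp, 5.68 for Cfd, 3.88 for Car3 and 2.49 for Retnla.

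Retinoid genes had values of -3.01 for Aldh1a3, 1.71 for Aldh1a2, -1.90 for Rbp2, -2.64 for Rdh16, 1.36 for Rbp4 and 1.06 for Rarg. Steroid and drug metabolism genes had values of -2.43 for Hsd11b2, 1.41 for Hsd3b3, 0.89 for Cyp2f2, 0.69 for Cyp4b1, -1.92 for Ces2f and 3.20 for Dpep1. Stress response and glycolysis genes had values of 1.83 for Hspb1, 1.10 for Bag3, 1.01 for Cryab, 1.08 for Ddit3, -1.90 for Hk2 and -1.97 for Egln3.

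Over 116 named genes, 382 groups of 4 libraries had a mean of at least 1 FPKM and were examined, lower groups being left out, and in 25 the highest or lowest library stood apart, its gap to the nearest library being a share of the group's range above Dixon's critical value. Chance marks about 1 in 20 such groups. In CON_VD 3 they were Car3 at 29.5 and Timp1 at 2.98 FPKM. In CON_VD 4 they were Lbp at 1.13 and Bag3 at 37.2 FPKM. In CON_CS 2 they were Abcg5 at 19.1 and Vip at 11.8 FPKM. In CON_CS 4 they were Ifit1bl1 at 233 and Vil1 at 125 FPKM. In DSS_VD 2 they were Reg3b at 58.4 and Retnlb at 595 FPKM. In DSS_VD 4 they were S100g at 12.1 and Vip at 40.5 FPKM. In DSS_CS 1 they were Aldh1a3 at 73.8, Ifit1bl1 at 98.0, Lox at 29.1, Ephb6 at 2.10 and Prss27 at 3.72 FPKM. In DSS_CS 2 they were Stmn2 at 6.87 and Il1f9 at 5.15 FPKM. In DSS_CS 4 they were Cfd at 104 and Car3 at 28.0 FPKM. Other libraries held 1 such value each, with Ly6g at 178 FPKM in CON_VD 1, Nos2 at 4.84 FPKM in CON_CS 1, Chga at 15.1 FPKM in CON_CS 3 and Cfd at 12.6 FPKM in DSS_VD 3.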

How the results depend on the processing

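The number of genes whose DSS response differed between birth modes (2015, with 1017 higher and 998 lower in CS mice) moved with the filter, the scaling and single libraries, and the cause was not tested. With no filter on low values 1042 genes passed, 578 higher and 464 lower. With an FPKM of at least 5 in at least 4 libraries, which tests fewer genes, 660 higher genes passed of 1495 called. After scaling to TPM, which tested 18980 genes at the same cut and pseudocount, 612 of 1518 were higher. Library weights gave 1524 lower genes of 2926 called. An added minimum size of 1 left 821, of which 255 were higher and 566 lower. Without the 3 accessory gland libraries, a choice made after seeing the data, 637 passed, 454 higher and 183 lower. Leaving out 1 library at a time gave 1056 to 2515 genes, 523 to 1162 of them higher and 533 to 1353 lower, with the lowest without DSS_CS 2 and the highest without DSS_CS 1. The other pseudocounts, scalings and variance settings gave between 1688 and 2190. None of the 2015 genes changed sign in an alternative that tested it, and some alternatives did not test all of them. The 2015 genes were selected by their interaction in these same libraries, so a kept sign was likely from the start and is description only. For 112 genes named above over 28 alternatives, 2908 of 3111 outcomes stayed on the same side of the threshold, 198 lost the call and 5 gained it, all 5 for Il22. Depth is unknown, so which low values rest on few reads cannot be told.

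The labels do not say whether a replicate number pairs samples, and the values showed no sign of it, though weak correlations cannot settle the question. Libraries with the same number deviated from their group means with correlations of -0.28 to 0.13 (median 0.00075), other numbers with -0.43 to 0.41, and 1 of 16 libraries correlated best with its own number. With a replicate block 1520 genes passed, 730 higher and 790 lower, and 1447 of these were among the 2015. Of the genes named above, Nos2, Epcam, Car3, Cyp4b1, Bag3 and Cryab missed the threshold with the block, at adjusted p-values of 0.0504 to 0.0609.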
